A study of Mus musculus with 7 samples.

Results

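The genes described here are 32 genes of synapses and neurons, followed across the oligodendrocyte lineage. They were chosen by name as components of the synaptic vesicle and its release machinery (13 genes), of adhesion across the synaptic cleft (7 genes), of the postsynaptic scaffold (7 genes), and as further genes best known from neurons (5 genes). All 32 symbols were found among the 27998 genes of the count table. Sorted oligodendrocyte lineage cells (OLCs) of mice at postnatal day (P) 90 had been sequenced as single cells in droplets, 1 library per population and 3 libraries in all. The cells named control dOLCs were TdTom+ cells of dorsal origin from Emx1-Cre:Sox10-GFP-TdTom mice, and control vOLCs were the GFP+ cells of ventral origin from mice of that genotype. Ectopic vOLCs were GFP+ cells from mice that carried Sox10-GFP-DTA beside Emx1-Cre and Sox10-GFP-tdTom, so that oligodendrocyte lineage cells of the Emx1-Cre lineage express diphtheria toxin fragment A (DTA) and are ablated.

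The mice shared a C57BL/6-B6CBA mixed background and were of both sexes. The labels place the tissue in motor and cingulate cortex, whereas the study's methods speak of the neocortex and, at the dissection step, of the CC, its abbreviation for corpus callosum, so that the region is not certain. Reporter and toxin are driven by Sox10 sequences and thus mark the oligodendrocyte lineage, and Emx1-Cre defines dorsal origin. In all, 4 control mice and 2 ablated mice were used, and the files do not tell them apart. With 1 library per condition there is no replicate: no test between conditions was possible, and intervals below are 95% conditional exact binomial intervals that cover counting error only. Because libraries and conditions coincide, a difference between conditions and a difference between libraries cannot be told apart.

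After the authors' quality filter 5804 control dOLCs, 925 control vOLCs and 2562 ectopic vOLCs remained, and the median cell of these libraries held 3489.5, 5022 and 5318.5 unique molecular identifiers (UMIs). Cell types were those of the authors' annotation: 1304 oligodendrocyte precursor cells (OPCs), 7688 mature oligodendrocytes (MOLs) in 7 clusters, and small clusters of cycling OPCs, committed and newly formed cells (COP/NFOL/MFOLa) and myelin-forming cells (MFOLb). The 6 OPC markers examined, Pdgfra and Cspg4 among them, summed to 8594 to 11086 CPM (UMIs of a gene per 1000000 UMIs) in OPCs and to 61.2 to 136 CPM in MOLs, so that the annotated names and the markers pointed the same way. Between 6 and 24 cell barcodes were shared by each pair of libraries.

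Synaptic vesicles dock and fuse at the presynaptic membrane through SNARE proteins, calcium sensors and complexins. Neurexins on the presynaptic side bind neuroligins and LRRTM proteins across the cleft, and the latter are anchored by scaffolds of the PSD-95, SAPAP, SHANK and Homer families. OPCs are known to receive synapses from neurons and to express many of these genes themselves, and mature oligodendrocytes use parts of the same fusion machinery to bring membrane to the myelin sheath.

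A level in CPM pools the cells of 1 cluster in 1 library and is relative to all UMIs of those cells. Wherever 3 values stand together, they are those of control dOLCs, control vOLCs and ectopic vOLCs, in that order. A gene was called higher in OPCs or in MOLs where its CPM differed at least 2-fold in the same direction, with an interval that left out 0 on the log2 scale, within each of the 3 libraries. This required at least 50 UMIs over the libraries, which 29 of the 32 genes had. Clusters had been formed from the same genes, so that a difference between clusters is a description and no test.

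Synaptic and neuronal genes stood mostly higher in OPCs than in MOLs. Of the 32 genes, 17 were called higher in OPCs, against 23.3% of the 11646 genes examined, and 1 was called higher in MOLs, against 4.88%. A further 11 genes were past the count minimum and were not called, and 3 genes were below it. Over the 28 genes with a ratio in every library, the median log2 ratio of OPCs to MOLs was 2.71, 3.03 and 3.07, against 0.52, 0.63 and 0.77 for all genes. Scaling by TMM factors or by size factors in place of total UMIs moved the median of all genes by −0.82 and −0.72, and the median of the mean ratio of the 28 genes from 3.03 to 2.22 and 2.32.

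The adhesion genes were the most uniform group, and all 7 were called higher in OPCs. Nrxn2, a presynaptic neurexin, stood at 876, 1143 and 794 CPM in OPCs and at 85.5, 91.5 and 50.1 CPM in MOLs. The 3 OPC values lay above all 3 MOL values, with a mean log2 ratio of 3.66 ± 0.32 (SD, n = 3 libraries). That SD, here and below, spans 3 conditions and not replicates of one. Nrxn3, a second neurexin, stood at 162, 213 and 162 CPM in OPCs and was low in MOLs, at 1.65, 0.697 and 1.19 CPM.

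Lrrtm1, a leucine-rich repeat ligand of neurexins, had the highest mean log2 ratio of the 32 genes, 7.57 ± 0.61 (SD, n = 3 libraries). It had 278, 51 and 137 UMIs in OPCs and only 17, 2 and 7 UMIs in the much larger number of MOLs. Its relative Lrrtm3 stood at 216, 309 and 225 CPM in OPCs and at 9.39, 11.4 and 9.25 CPM in MOLs, a mean log2 ratio of 4.63 that varied least of the called genes between libraries (SD 0.12, n = 3 libraries). The neuroligins are the postsynaptic partners of neurexins. Nlgn3 had the highest ratio among them, with 374, 755 and 428 CPM in OPCs and 12.0, 14.4 and 10.3 CPM in MOLs. Nlgn1 stood at 157, 162 and 129 CPM in OPCs and at 23.2, 17.4 and 13.5 CPM in MOLs. Nlgn2, best known from inhibitory synapses, stood at 138, 162 and 159 CPM in OPCs and at 16.2, 13.7 and 11.2 CPM in MOLs. For each of the 7 adhesion genes, the OPC values and the MOL values of the libraries did not overlap.

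**Figure D1:**
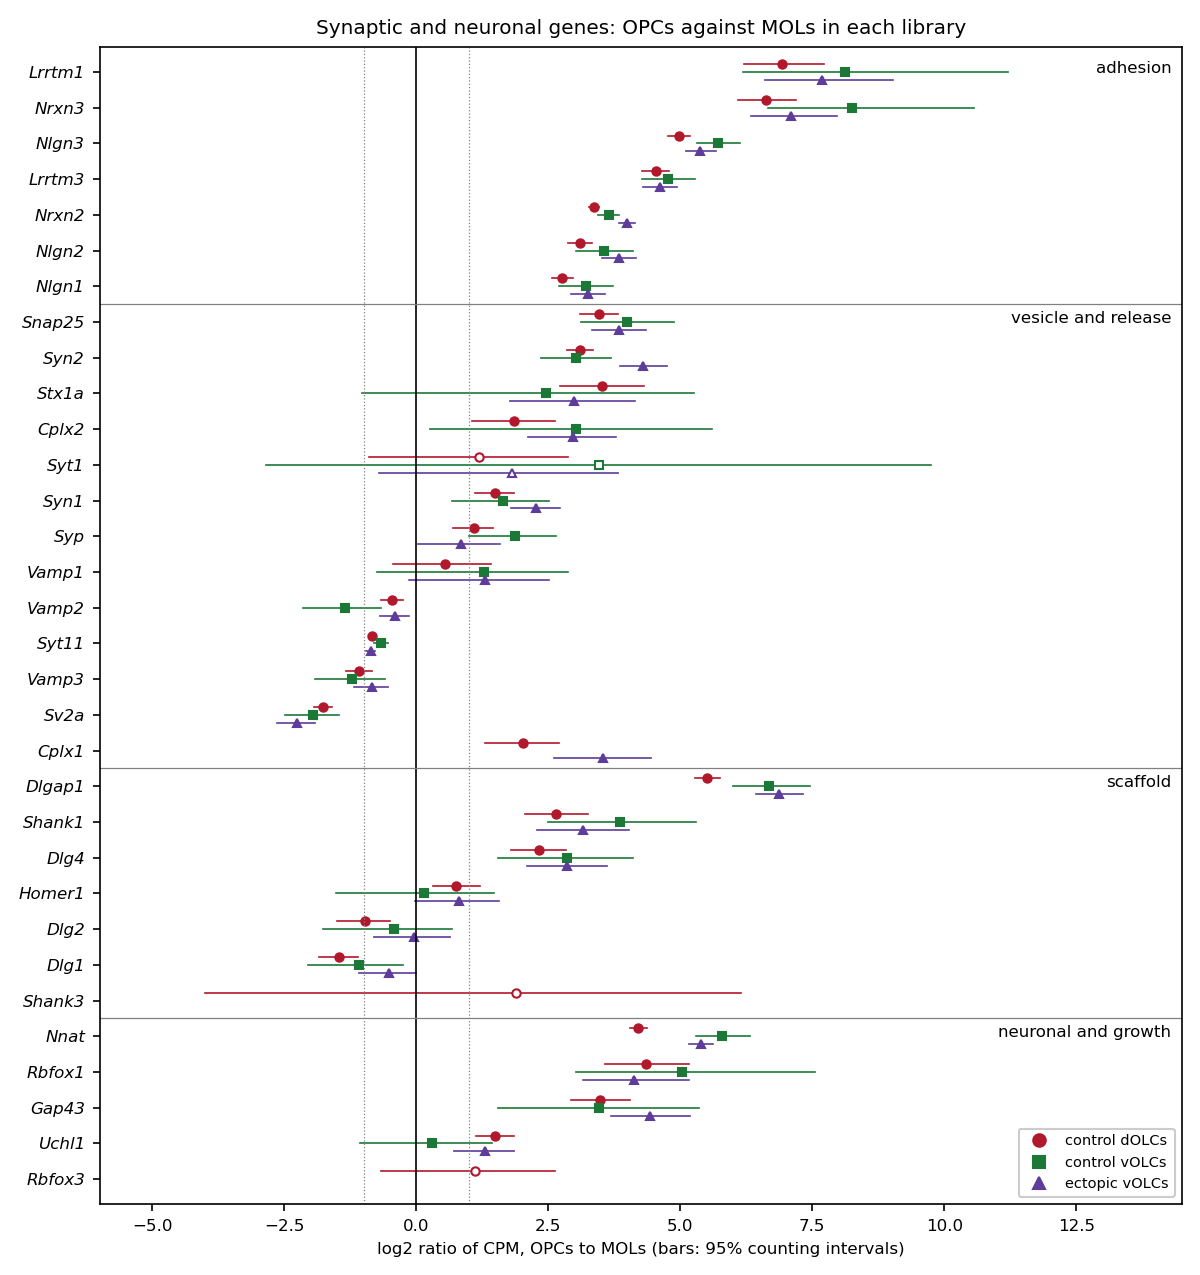
The log2 ratio of CPM in OPCs to that in MOLs (x axis) is plotted for each of the 32 genes, grouped by role, with 1 symbol per library, 95% counting intervals as bars, dotted lines at 2-fold and open symbols for genes below the count minimum. Libraries in which a class had 0 UMIs carry no symbol. All 7 adhesion genes lie right of 2-fold in the 3 libraries, whereas the vesicle genes run from Snap25 (mean 3.76) to Sv2a (mean −1.99).

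The vesicle and release genes were divided. Of 13 genes, 4 were called higher in OPCs (Snap25, Syn1, Syn2 and Cplx2) and 1 was called higher in MOLs (Sv2a). Snap25 encodes the SNARE of the neuronal plasma membrane, and it stood at 60.9, 73.5 and 66.5 CPM in OPCs and at 5.57, 4.65 and 4.67 CPM in MOLs, a mean log2 ratio of 3.76 ± 0.27 (SD, n = 3 libraries). Syn2, a synapsin that tethers vesicles, stood at 109, 91.2 and 104 CPM in OPCs and at 12.7, 11.2 and 5.30 CPM in MOLs. Syn1, the other synapsin among the 32 genes, differed less, with 32.4, 35.5 and 49.1 CPM in OPCs and 11.6, 11.4 and 10.2 CPM in MOLs. Cplx2, a complexin, rested on 22, 3 and 23 UMIs in OPCs. The calls of Syn1 and Cplx2 were lost under TMM and size factor scaling, and that of Cplx2 also with cells thinned to 1000 UMIs and where a UMI in 10% of cells was required.

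Sv2a, a glycoprotein of synaptic vesicles, ran against the group: it stood at 109, 88.7 and 54.1 CPM in OPCs and at 370, 342 and 259 CPM in MOLs. The 3 MOL values lay above all 3 OPC values, and the geometric mean ratio of MOLs to OPCs was 3.97-fold (mean log2 ratio of OPCs to MOLs −1.99 ± 0.25, SD, n = 3 libraries). OPCs also held RNA of mature oligodendrocytes. Mbp, a myelin protein gene, stood at 1515, 849 and 831 CPM in OPCs and at 6193, 6137 and 6751 CPM in MOLs, and Mog, another, at 440, 220 and 217 CPM in OPCs and at 2173, 2578 and 2728 CPM in MOLs. Control dOLCs were the highest library in OPCs for both, as for Sv2a. The part of such RNA in the Sv2a level of OPCs was not tested.

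Promoter sequences are given for Nlgn1 and Syn1, both called higher in OPCs, because the letters TTCAGCACC occur in them. These letters are the left part of the element bound by REST, a repressor of neuronal genes in non-neuronal cells. They were searched on both strands in RefSeq promoter windows of 300 bases (GRCm38.p6, 250 bases before to 50 after a gene's start), which were given for 25 of the 32 genes in 40 windows. They occur in 2 of these 40 windows and in 0.371% of all 32851 windows. The window of Nlgn1 is chr3:26153937-26154236 on the minus strand and that of Syn1 is chrX:20920869-20921168 on the minus strand. Both are written 5′ to 3′ along the gene, with the match in capitals. The window of Sv2a, chr3:96180977-96181276 on the plus strand, is shown for the gene that was higher in MOLs. Its capitals mark ACAATG, a core motif of SOX proteins, which occurs in 3 of the 40 windows (Dlg2, Sv2a and Vamp1) and in 12.6% of all windows. The E-box letters CAGCTG, also searched, occur in 27.5% of the 40 windows and in 16.3% of all. A match of letters describes the sequence and does not show binding.
Nlgn1: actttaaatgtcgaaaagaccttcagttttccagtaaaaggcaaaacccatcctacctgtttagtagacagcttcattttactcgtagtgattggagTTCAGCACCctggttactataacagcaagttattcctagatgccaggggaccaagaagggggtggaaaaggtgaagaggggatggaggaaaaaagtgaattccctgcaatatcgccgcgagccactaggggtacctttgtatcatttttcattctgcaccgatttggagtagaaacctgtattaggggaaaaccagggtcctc
Syn1: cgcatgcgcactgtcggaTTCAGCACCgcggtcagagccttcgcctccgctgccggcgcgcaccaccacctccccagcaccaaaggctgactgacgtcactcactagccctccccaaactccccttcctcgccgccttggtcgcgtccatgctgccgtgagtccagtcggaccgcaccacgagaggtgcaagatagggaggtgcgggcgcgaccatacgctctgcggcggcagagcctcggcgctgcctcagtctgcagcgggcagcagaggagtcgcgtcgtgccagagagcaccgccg
Sv2a: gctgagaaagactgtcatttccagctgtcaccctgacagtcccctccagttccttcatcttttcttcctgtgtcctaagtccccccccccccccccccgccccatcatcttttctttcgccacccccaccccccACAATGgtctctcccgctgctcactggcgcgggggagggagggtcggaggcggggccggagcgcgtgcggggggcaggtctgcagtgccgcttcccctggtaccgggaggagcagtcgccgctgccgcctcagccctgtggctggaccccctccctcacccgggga

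Syt11, Vamp2 and Vamp3 were also higher in MOLs, without reaching 2-fold in every library. Syt11, a synaptotagmin that does not bind calcium, stood at 1273, 1135 and 977 CPM in OPCs and at 2272, 1804 and 1777 CPM in MOLs. Vamp3, the widely expressed vesicle SNARE cellubrevin, stood at 57.5, 53.2 and 69.9 CPM in OPCs and at 122, 124 and 125 CPM in MOLs. Vamp2, the main vesicle SNARE of neurons, stood at 84.2, 43.1 and 94.8 CPM in OPCs and at 116, 110 and 126 CPM in MOLs. In each of these genes, the MOL values lay above the OPC values. Under TMM or size factor scaling, Syt11, Vamp2, Vamp3 and the scaffold gene Dlg1 joined Sv2a as called higher in MOLs, which made 5 genes. The share of all genes called higher in MOLs then was 12.5% under TMM factors and 11.1% under size factors, and the share called higher in OPCs was 14.2% and 14.7%.

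The other vesicle genes gave no call. Syp (synaptophysin) stood at 28.6, 45.6 and 15.0 CPM in OPCs and at 13.5, 12.5 and 8.30 CPM in MOLs, and missed 2-fold only in ectopic vOLCs, where the log2 ratio was 0.85 (interval 0.04 to 1.58). Without ectopic vOLCs, Syp was called higher in OPCs, and Vamp3 and Dlg1 higher in MOLs. Stx1a (syntaxin 1A) had 37, 2 and 12 UMIs in OPCs and Cplx1 had 28, 0 and 23 UMIs. In control vOLCs, whose 121 OPCs held 394731 UMIs, 3 UMIs amount to 7.60 CPM, so that neither gene could be judged there. Both were called higher in OPCs when control vOLCs were left out, as was Uchl1. Vamp1 stood between 4.95 and 10.1 CPM in OPCs and between 2.37 and 4.18 CPM in MOLs. Syt1, the fast calcium sensor of neuronal release, had only 4, 1 and 3 UMIs in OPCs and 13, 1 and 9 UMIs in MOLs.

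The scaffold genes were divided as well, with 3 of 7 called higher in OPCs. Dlgap1 (SAPAP1, which links PSD-95 to SHANK proteins) stood at 387, 453 and 443 CPM in OPCs and at 8.51, 4.41 and 3.80 CPM in MOLs, a mean log2 ratio of 6.35 ± 0.74 (SD, n = 3 libraries). Dlg4, which encodes PSD-95, stood at 20.6, 25.3 and 22.5 CPM in OPCs and at 4.13, 3.48 and 3.08 CPM in MOLs. Shank1 stood at 17.5, 30.4 and 19.1 CPM in OPCs and at 2.78, 2.09 and 2.14 CPM in MOLs. These 3 genes did not overlap between the classes. Dlg4 and Shank1 lost their calls with cells thinned to 1000 UMIs and where a UMI in 10% of cells was also required, so that of the scaffold genes only Dlgap1 was called under those settings.

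The PSD-95 relatives Dlg1 (SAP97) and Dlg2 (PSD-93) did not share the direction of Dlg4. Dlg1 stood at 25.1, 30.4 and 26.6 CPM in OPCs and at 69.1, 64.3 and 38.2 CPM in MOLs. Dlg2 stood at 13.7, 17.7 and 15.8 CPM in OPCs and at 27.1, 23.7 and 16.3 CPM in MOLs. For both, the MOL value of ectopic vOLCs was the closest to the OPC values. Homer1 ranged from 12.7 to 20.6 CPM in OPCs and from 8.07 to 12.1 CPM in MOLs. Shank3 had 1, 1 and 0 UMIs in OPCs and 2, 0 and 3 UMIs in MOLs and could not be assessed at this depth.

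Among the 5 further neuronal genes, Nnat, Rbfox1 and Gap43 were called higher in OPCs. Nnat (neuronatin, a small membrane protein of developing neurons) stood at 475, 512 and 734 CPM in OPCs and at 25.8, 9.29 and 17.6 CPM in MOLs. Gap43, a growth cone protein, stood at 27.0, 15.2 and 40.8 CPM in OPCs and at 2.42, 1.39 and 1.90 CPM in MOLs. Rbfox1, a splicing factor, stood at 20.9, 22.8 and 20.8 CPM in OPCs and at 1.03, 0.697 and 1.19 CPM in MOLs. With cells thinned to 1000 UMIs Gap43 and Rbfox1 lost their calls, and Rbfox1 also did where a UMI in 10% of cells was required. The relative of Rbfox1, Rbfox3, which encodes the neuronal marker NeuN, had almost no counts: 5, 0 and 0 UMIs in OPCs and 17, 1 and 5 UMIs in MOLs. Uchl1, a ubiquitin hydrolase abundant in neurons, stood at 35.8, 17.7 and 28.3 CPM in OPCs and at 12.7, 14.4 and 11.5 CPM in MOLs and was not called.

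Counts of the more abundant genes were spread over many OPCs. The 14 OPCs (1%) with most UMIs of a gene held 3.54% of the Nrxn2 UMIs, 4.63% of the Dlgap1 UMIs and 4.79% of the Nlgn3 UMIs. No OPC had more than 11 UMIs of Nrxn2 or more than 4 UMIs of Snap25.

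Markers of neurons were examined in the same sums. The 14 neuron markers summed to 1109, 1277 and 1185 CPM in OPCs and to 23.2, 11.8 and 14.6 CPM in MOLs, and thus moved with the synaptic genes. Nearly all of it was Meg3, a long noncoding RNA, at 1026, 1186 and 1114 CPM in OPCs. Among the 8 neuron-defining genes, at 44.6, 48.1 and 34.9 CPM in OPCs, most counts were of Gad1, with 94, 16 and 37 UMIs. The markers did not all go the same way: 6 of the 14 were higher in OPCs than in MOLs in all 3 libraries (Meg3, Gad1, Gad2, Thy1, Nefm and Stmn2), and the other 8 were not. Thy1 stood at 17.1, 25.3 and 19.1 CPM in OPCs and at 1.86, 0.465 and 1.58 CPM in MOLs, Nefm, a neurofilament gene, at 6.86, 7.60 and 13.3 against 0.619, 0.465 and 0.316 CPM, and Gad2 at 6.48, 7.60 and 1.66 against 0.258, 0.232 and 0.158 CPM. Camk2a, a kinase gene of excitatory neurons, stood at 7.62, 5.07 and 0.832 CPM in OPCs against 3.61, 4.88 and 3.08 CPM in MOLs, and Nefl, another neurofilament gene, at 3.43, 0 and 0 against 1.65, 1.16 and 1.34 CPM, so that in ectopic vOLCs both were lower in OPCs. Slc17a7, the vesicular glutamate transporter of cortical excitatory neurons, had 4, 0 and 0 UMIs in OPCs (1.52, 0 and 0 CPM, against 0.980, 0.232 and 0.870 CPM in MOLs). Neurod2 had 0, 0 and 1 UMI in OPCs, and Slc17a6 had none in the OPCs of the 3 libraries. Of the 8 neuron-defining genes, 3, 6 and 4 were at 0 in the OPCs of the 3 libraries, of which control vOLCs held the fewest OPCs.

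A UMI of a neuron-defining gene was present in 13.1%, 14.0% and 12.1% of OPCs and in 0.947%, 0.385% and 0.835% of MOLs. When every cell with a UMI of a neuron-defining gene was left out, 245 cells in all, only the call of Cplx2 was lost among the genes called higher in OPCs. Markers of other cells also differed: astrocyte markers summed to 1004, 1084 and 1028 CPM in OPCs and to 260, 246 and 226 CPM in MOLs. Most of the astrocyte sum in OPCs was Slc1a3, Slc1a2 and Aldoc. Of the 6 astrocyte markers, these 3 and Aqp4 were higher in OPCs in all 3 libraries, whereas Gja1 was lower in all 3, at 1.14, 0 and 0.832 CPM against 2.78, 1.86 and 2.29 CPM in MOLs. Gfap was mixed, at 0, 2.53 and 0.832 CPM in OPCs against 1.13, 1.16 and 0.395 CPM in MOLs. Microglia markers summed to 78.1, 109 and 79.0 CPM in OPCs and to 32.4, 36.0 and 28.9 CPM in MOLs, endothelial and mural markers to 17.7 CPM or less in either class, and fibroblast markers to 1 UMI in all. The part of these cells in the ratios was not tested.

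Between OPCs and MOLs, most of these genes were already low in the cluster of committed and newly formed cells. Of the 17 genes called higher in OPCs, 15 stood in COP/NFOL/MFOLa more than 2-fold below their OPC level with an interval off 0, and 16 did so in MFOLb. Of all 2714 genes called higher in OPCs, 66.7% met these criteria in COP/NFOL/MFOLa and 79.3% in MFOLb, so that most genes of that kind were low there. With the libraries summed, Nrxn3 stood lowest of the 17, at 2.44% of its OPC level in COP/NFOL/MFOLa (log2 ratio −5.35, interval −7.64 to −3.80). Lrrtm3 stood there at 8.97%, Syn2 at 14.1%, Nnat at 17.0%, Nrxn2 at 19.1% and Dlgap1 at 19.9% of the OPC level. The neuroligins kept more of it than these: Nlgn1 stood at 28.2%, Nlgn3 at 39.7% and Nlgn2 at 44.6%. Dlg4 kept the most of the 17, at 56.8%, and Cplx2 stood at 35.9%. These 2 values rested on 9 and 3 UMIs there, with intervals that included 0. In MFOLb, Nlgn3 was down to a log2 ratio of −3.72 (interval −4.33 to −3.16) to OPCs.

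Sv2a, Syt11 and Dlg1 were already high at that stage. With the libraries summed, the COP/NFOL/MFOLa cluster had 344% of the OPC level of Sv2a (log2 ratio 1.78, interval 1.54 to 2.02), 209% of that of Dlg1 (1.06, interval 0.50 to 1.60) and 169% of that of Syt11 (0.76, interval 0.67 to 0.84). The libraries held only 17, 3 and 11 cycling OPCs, and 19 of the 32 genes had 5 UMIs or fewer there in all. Of the 17 genes called higher in OPCs, 4 had an interval that left out 0, all of them lower in cycling OPCs: Snap25, Nrxn2, Nrxn3 and Nnat. Of all genes called higher in OPCs, 6.04% were lower in cycling OPCs with an interval off 0. Snap25 rested on 2 UMIs there, while Nlgn3 stood at 420 CPM, beside 425 CPM in other OPCs.

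**Figure D2:**
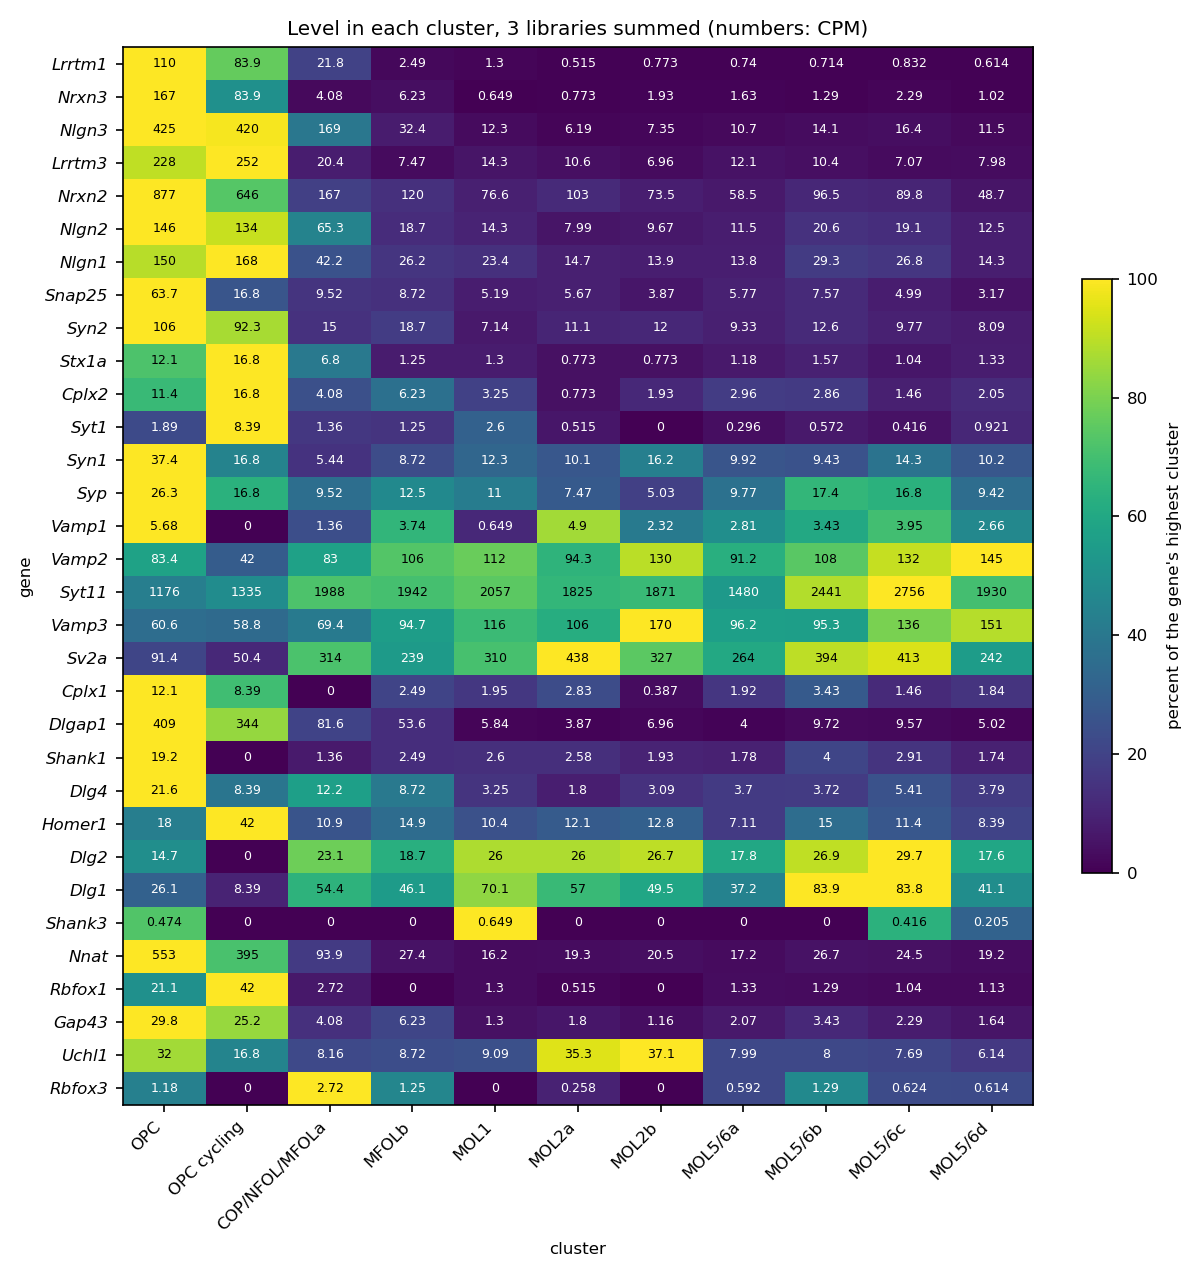
Each row is 1 of the 32 genes and each column 1 cluster, with the 3 libraries summed; numbers are CPM and colour gives the percent of the gene's own highest cluster. Of the 32 genes, 16 are highest in OPCs and 7 in cycling OPCs, while Vamp2, Vamp3, Sv2a, Syt11, Dlg1, Dlg2 and Uchl1 are highest in a cluster of MOLs. In cycling OPCs Syt1, Stx1a and Cplx2 rest on 1 or 2 UMIs, and Rbfox3 and Shank3 have few UMIs in any cluster.

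Among the MOLs, Uchl1 was set apart by cluster. It stood at 35.8, 36.7 and 36.1 CPM in MOL2 (MOL2a and MOL2b together) and at 7.01, 5.82 and 8.13 CPM in MOL5/6 (MOL5/6a to MOL5/6d together). The MOL2 values lay at or just above the highest OPC value, and the log2 ratio of MOL2 to MOL5/6 was 2.35 (interval 1.97 to 2.74), 2.66 (1.82 to 3.55) and 2.15 (1.64 to 2.65). Uchl1 was the only one of the 32 genes at least 1.5-fold higher in MOL2 with an interval off 0 in all 3 libraries. Nlgn2 was the only one lower by these criteria, at 11.1, 7.34 and 3.86 CPM in MOL2 and at 17.5, 16.4 and 12.2 CPM in MOL5/6. By the same criteria 1.69% of the 10691 genes with 50 UMIs or more in these clusters were higher in MOL2 and 0.832% lower, so that a single member of the 25 past that filter in each direction is no result about the members. Against MOL5/6 alone in place of all MOLs, Uchl1 was called higher in OPCs.

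**Figure D3:**
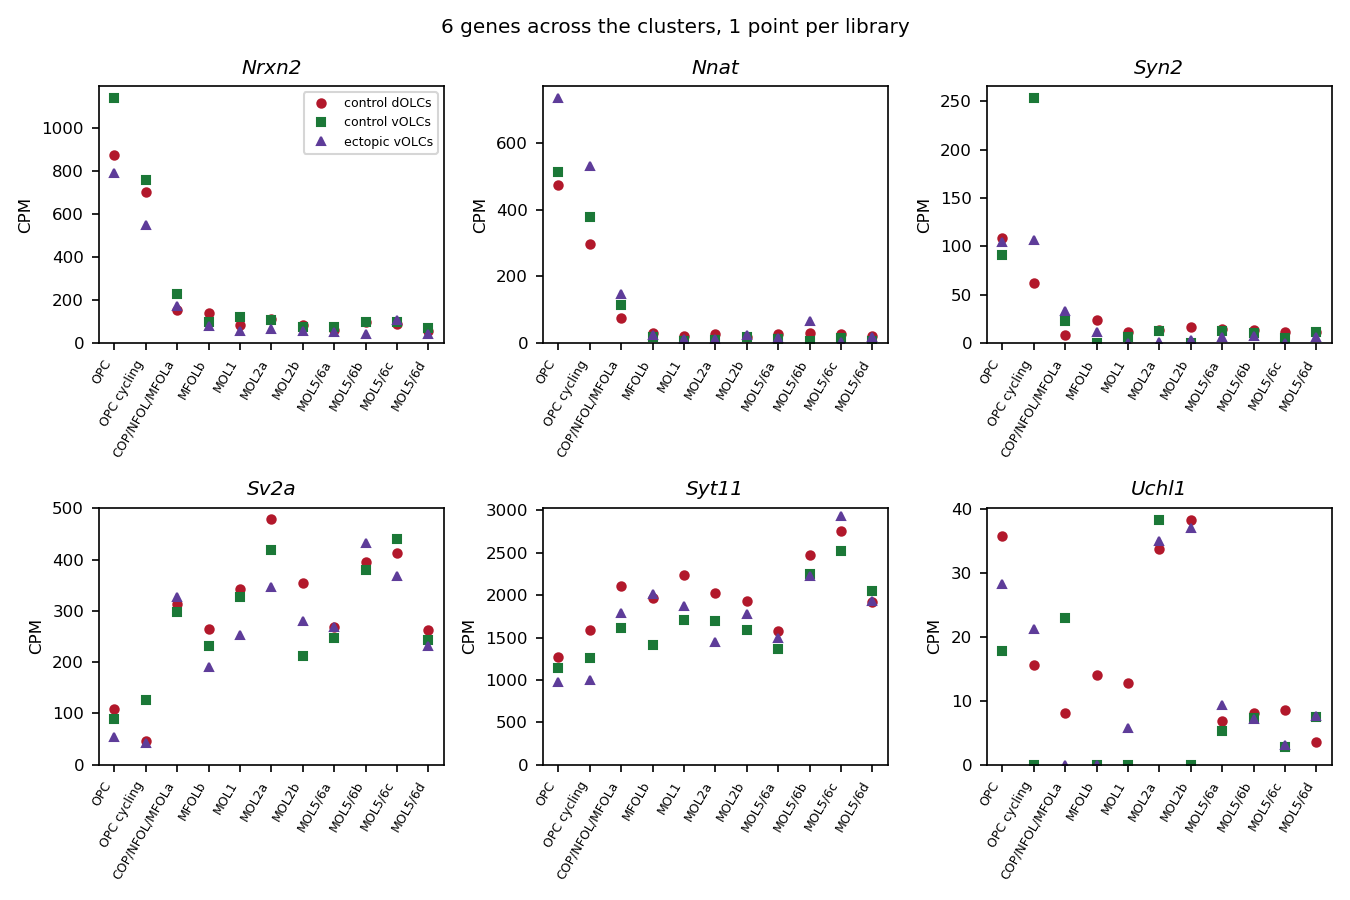
CPM (y axis, linear from 0) of 6 genes is plotted for each cluster (x axis), with 1 symbol per library. Nrxn2, Nnat and Syn2 are high in OPCs and cycling OPCs, Sv2a and Syt11 are lowest there with the libraries summed, and Uchl1 is high in OPCs, MOL2a and MOL2b. In control vOLCs, 3 cycling OPCs, 8 MFOLb cells and 6 MOL2b cells were present, so that the points of Nnat, Syn2 and Uchl1 there rest on 0 to 3 UMIs.

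Other synaptic genes were taken from a list of 113 genes in 5 groups. Of these, 94 were past the count minimum, 52 were called higher in OPCs and 4 higher in MOLs, with a median log2 ratio of 2.27 over 92 genes. The 52 genes were 55.3% of the 94, against 23.3% of all genes examined. By group, and of the genes past the count minimum, 18 of 23 adhesion genes, 10 of 15 active zone genes, 10 of 14 RNA-binding and growth genes and 7 of 14 scaffold genes were called higher in OPCs. In the group of SNARE and vesicle cycle genes, 7 of 28 were (25.0%), a share near that of all genes, with a median log2 ratio of 0.09 against 0.64 for all genes. The 3 highest ratios were those of Lrrtm4, a relative of Lrrtm1, Cacng4, a subunit that accompanies AMPA receptors, and Elavl4, a neuronal RNA-binding protein. Lrrtm4 stood at 58.3, 83.6 and 65.7 CPM in OPCs and at 0.309, 0.232 and 0.633 CPM in MOLs (mean log2 ratio 7.58). Cacng4 stood at 610, 712 and 598 CPM in OPCs and at 9.80, 3.72 and 3.95 CPM in MOLs (6.93), and Elavl4 at 73.9, 81.1 and 91.5 against 1.39, 0.232 and 1.34 CPM (6.76). The lowest ratios were those of Iqsec1, an exchange factor for small GTPases, Stmn1, a regulator of microtubules, and Elavl3, a relative of Elavl4, all called higher in MOLs. Stmn1 stood at 890, 395 and 414 CPM in OPCs and at 2657, 1967 and 2514 CPM in MOLs (mean log2 ratio −2.16), and Elavl3 at 175, 111 and 138 against 669, 554 and 552 CPM (−2.08). Iqsec1 had the lowest mean, −2.74, with 40, 5 and 1 UMIs in OPCs. Its log2 ratios were −1.67, −1.72 and −4.81, so that its rank rests on the single UMI in ectopic vOLCs. Ptprd, a receptor phosphatase of synaptic adhesion, was the other gene called higher in MOLs.

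The second question, raised by the ablation, was whether cells of ventral origin from ablated mice resembled either control. In MOL5/6, the 25 genes with at least 50 UMIs over the libraries were compared. A gene was called where ectopic vOLCs differed at least 1.5-fold in the same direction from both controls, with both intervals off 0. None was called higher, against 0.510% of 10393 genes, and 4 were called lower, Syp, Syn2, Nrxn2 and Dlg1, against 9.25%. As the comparisons share the ectopic library, they are not independent of each other.

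Syn2 showed the lowest ratio of the 4 genes, with 12.3, 11.0 and 5.96 CPM in MOL5/6. Its log2 ratio was −1.04 to control dOLCs (interval −1.48 to −0.62) and −0.88 to control vOLCs (interval −1.51 to −0.22). Dlg1 stood at 70.9, 67.1 and 37.4 CPM, with log2 ratios of −0.92 (interval −1.09 to −0.76) and −0.85 (interval −1.10 to −0.59). The controls resembled each other in both genes, and ectopic vOLCs lay below them. Nrxn2 stood at 82.1, 84.6 and 48.5 CPM, with log2 ratios of −0.76 (interval −0.91 to −0.61) and −0.80 (interval −1.02 to −0.58). Syp stood at 15.0, 14.4 and 9.17 CPM, with log2 ratios of −0.71 (interval −1.06 to −0.35) and −0.65 (interval −1.19 to −0.09).

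The other 21 genes gave no call in ectopic MOL5/6. Sv2a stood at 358, 315 and 252 CPM and Syt11 at 2345, 1858 and 1794 CPM. Syt11 belongs to a list that the study chose on these same cells as lower in ectopic oligodendrocytes, so that its direction is no independent evidence. Here, its log2 ratio was −0.39 (interval −0.41 to −0.36) to control dOLCs and −0.05 (interval −0.09 to −0.01) to control vOLCs. Dlgap1 stood at 8.83, 5.82 and 3.97 CPM, Nlgn1 at 25.0, 17.8 and 13.6 CPM, Dlg2 at 26.3, 21.2 and 16.1 CPM, and Homer1 at 12.1, 10.6 and 7.57 CPM. These 4 genes were more than 1.5-fold below control dOLCs with an interval off 0, and their intervals to control vOLCs included 0. Nlgn3, at 12.9, 19.2 and 10.9 CPM, was below control vOLCs by these criteria (log2 ratio −0.82, interval −1.29 to −0.33) and not below control dOLCs. Vamp2 stood at 117, 114 and 128 CPM and Vamp3 at 118, 128 and 125 CPM, with every ratio of ectopic vOLCs within 1.5-fold.

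Over the 25 genes, 16 stood below 0 on the log2 scale against both controls and 2 stood above 0, Vamp2 and Uchl1. Of all 10393 genes tested, 49.3% stood below 0 against both controls and 24.7% above. Their median log2 ratio was −0.51 to control dOLCs and −0.40 to control vOLCs, against −0.15 and −0.11 for all genes. With ratios averaged within the MOL5/6 clusters, the medians were −0.11 and −0.13, against −0.10 and −0.08 for all genes. TMM and size factor scaling moved the median of all genes by 0.15 to 0.19. Under TMM factors Syp lost its call, and under size factors Syp and Nrxn2 lost theirs, while Syn2 and Dlg1 remained called. With cells thinned to 1000 UMIs, Syp, Syn2 and Nrxn2 lost their calls, and Syp and Syn2 lost theirs where a UMI in 10% of cells was also required. Of the other synaptic genes, 10 of 70 were called lower in ectopic vOLCs (against 9.25% of all genes) and 1 higher (against 0.510%).

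Cluster makeup, OPC markers and transcript length moved with these ratios. The 6 OPC markers summed to 136, 76.7 and 59.3 CPM in MOL5/6, and their part in the ratios was not tested. Dlgap1 and Nlgn1 had the same order of libraries there, as did Syn2, Dlg1 and Syp. So did Sv2a and Syt11, which were higher in MOLs than in OPCs, while Nrxn2 and Nlgn3 were highest in control vOLCs. MOL5/6b held 51.5%, 42.1% and 2.28% of the MOL5/6 cells, and MOL5/6d held 15.1%, 6.24% and 45.4%. In ectopic vOLCs, MOL5/6a and MOL5/6d held most cells, whereas MOL5/6b was the largest cluster in control dOLCs and MOL5/6a and MOL5/6b were about equal in control vOLCs. Syp, Nrxn2 and Dlg1 were higher in MOL5/6b and MOL5/6c than in MOL5/6a and MOL5/6d with the libraries summed, although these clusters largely hold cells of different libraries. Within control dOLCs alone, Dlg1 stood at 38.2, 82.5, 84.6 and 47.5 CPM in MOL5/6a to MOL5/6d. Nrxn2 stood at 62.9, 97.8, 88.0 and 55.8 CPM there, and Syp at 10.5, 17.1, 17.0 and 10.6 CPM. Not every library had this order. The 42 ectopic vOLCs of MOL5/6b had 0 UMIs of Syp and 43.2 CPM of Nrxn2, below 51.4 CPM in MOL5/6a. A ratio formed within the 4 clusters (Mantel-Haenszel, chosen after the data were seen) gave −0.25 and −0.24 for Syp, −0.28 and −0.51 for Nrxn2, and −0.26 and −0.40 for Dlg1. None of these reached 1.5-fold against both controls. For Syn2, it gave −1.15 and −1.03, although its call was lost under the settings named above.

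Longer transcripts had lower ratios of ectopic vOLCs to control dOLCs in MOL5/6. Across 10089 genes with an annotated length, Spearman's rho between the longest transcript and the log2 ratio was −0.51, as a description, since genes share the libraries and are not replicates. The 10% of genes with the shortest transcripts, below 1390 bases, had a median log2 ratio of 0.06, and the 10% with the longest, above 7010 bases, one of −0.60. Over the 25 synaptic and neuronal genes, rho was −0.55. For the ratio to control vOLCs, rho was −0.40 over all genes and −0.60 over the 25. Syn2, at 3854 bases, stood lower than others of similar length, while Nrxn2 and Dlg1 have transcripts of 6667 and 6143 bases. The part of length in these ratios was not tested.

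**Figure D4:**
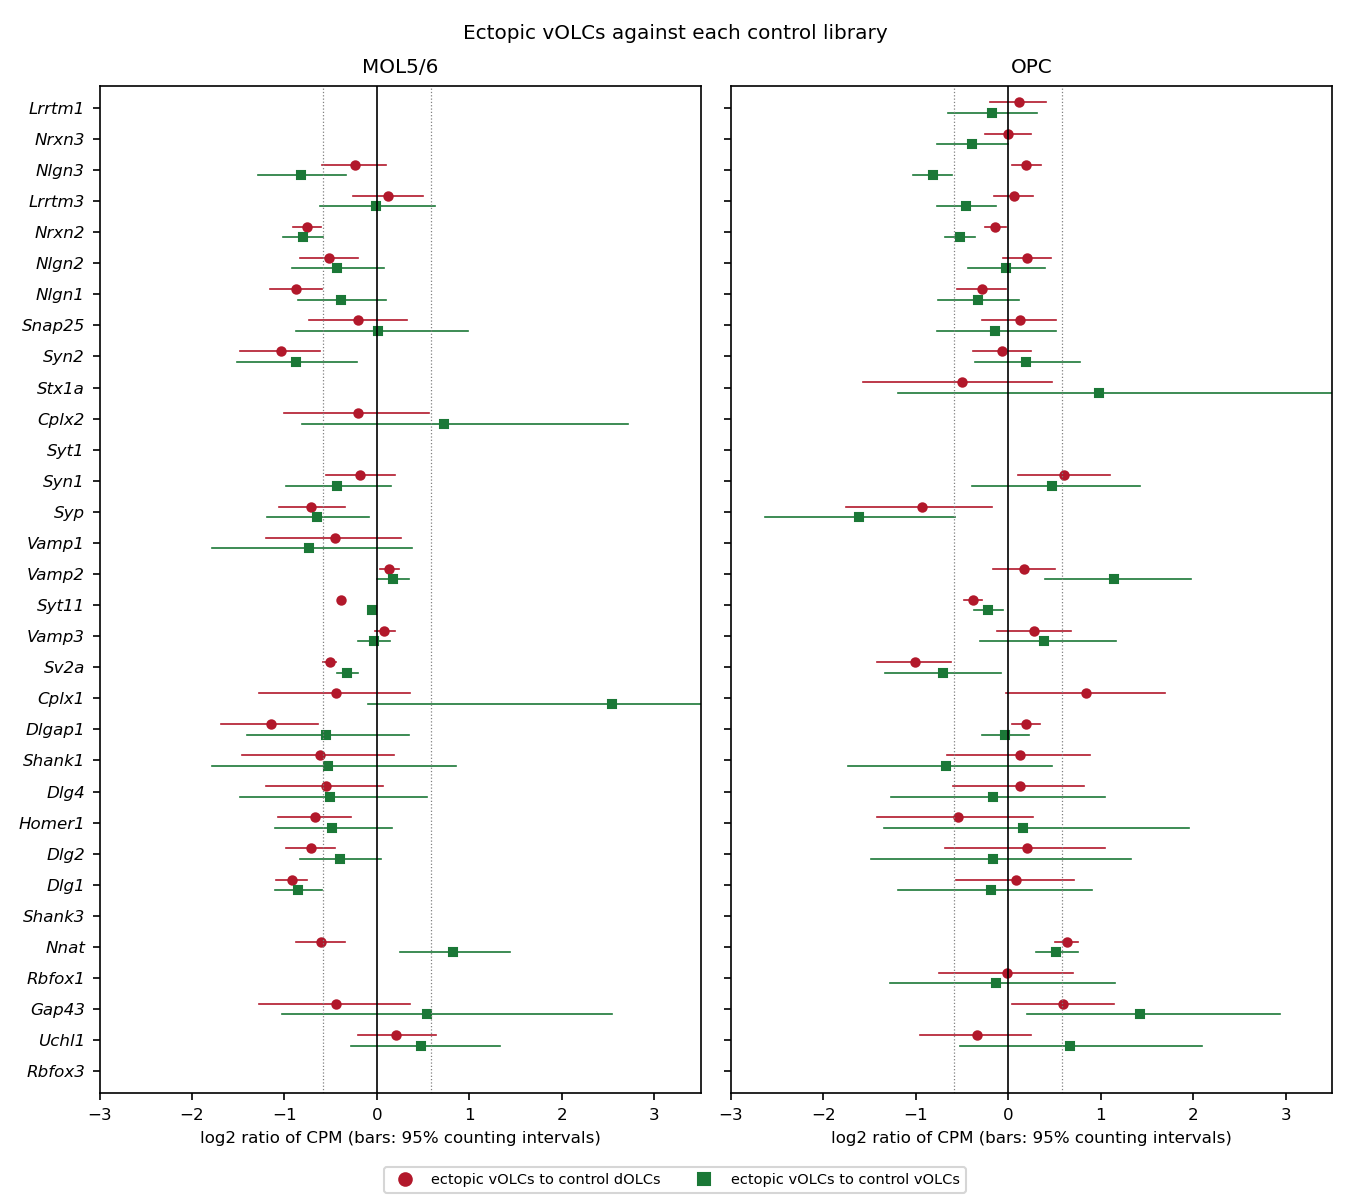
The log2 ratio of CPM in ectopic vOLCs to control dOLCs (circles) and to control vOLCs (squares) is plotted for MOL5/6 (left) and OPCs (right), with 95% counting intervals as bars and dotted lines at 1.5-fold; genes below the count minimum carry no symbol, nor does a ratio to a library with 0 UMIs, and bars that run past the axis are cut. In MOL5/6 both symbols of Syp, Syn2, Nrxn2 and Dlg1 lie left of 1.5-fold, and in OPCs those of Syp and Sv2a do.

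**Figure D5:**
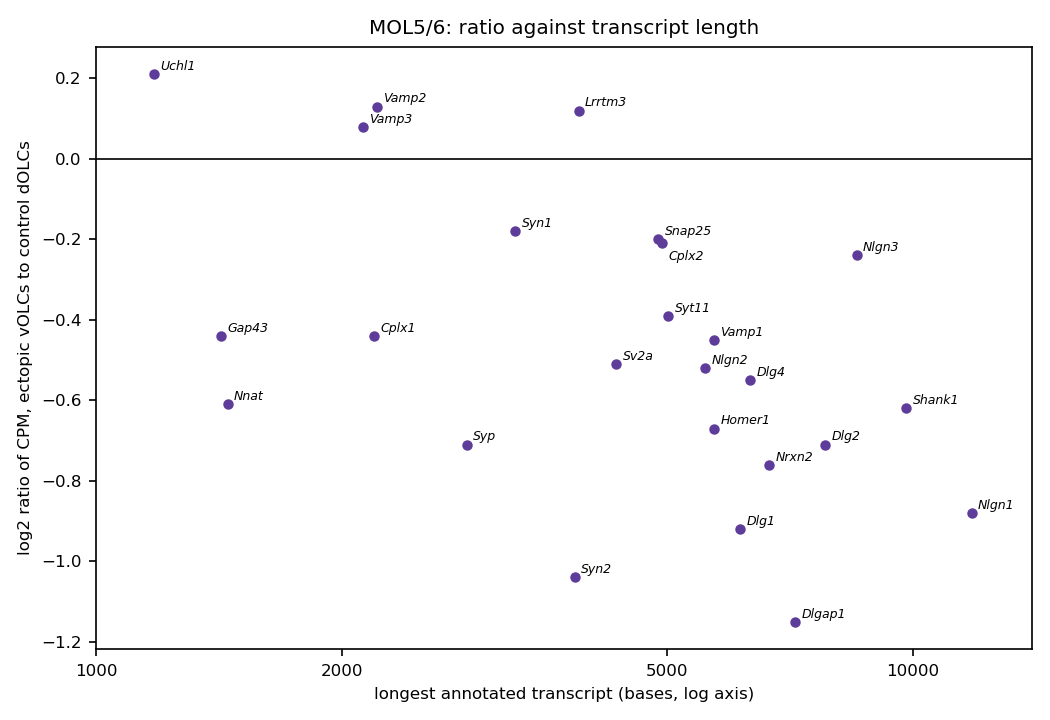
For the 25 genes compared in MOL5/6, the log2 ratio of CPM in ectopic vOLCs to control dOLCs (y axis) is plotted against the longest annotated transcript in bases (x axis, log scale), 1 point per gene. Uchl1, Vamp2, Vamp3 and Lrrtm3 (1177 to 3896 bases) lie above 0, and Dlgap1 (7173 bases) is the lowest at −1.15. Other short transcripts lie below 0: Gap43 (1420 bases) at −0.44, Nnat (1448 bases) at −0.61 and Cplx1 (2189 bases) at −0.44.

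Control vOLCs and control dOLCs differed in few of these genes in MOL5/6. With the same 1.5-fold criterion, none was called higher in control vOLCs, against 3.44% of genes, and 2 were called lower, Nnat and Cplx1, against 2.95%. Nnat stood at 26.6, 9.93 and 17.5 CPM, and its log2 ratio of control vOLCs to control dOLCs was −1.42 (interval −2.02 to −0.88). Its level in ectopic vOLCs lay between the controls. Cplx1 had 40, 1 and 21 UMIs, so that the call rests on a single UMI in control vOLCs. The 14 neuron markers summed to 23.1, 12.7 and 14.1 CPM in MOL5/6, but not all were lower in control vOLCs. Meg3 stood at 11.0, 3.08 and 4.35 CPM. Camk2a stood at 3.91, 4.45 and 2.46 CPM, Stmn2 at 2.02, 2.05 and 2.08 CPM and Gad1 at 0.270, 0.342 and 0.0946 CPM. In control vOLCs 6 of the 14 were at 0, but their MOL5/6 cells held 2919924 UMIs, against 14839551 in control dOLCs. The part of neuron markers in the Nnat and Cplx1 ratios was not tested.

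In OPCs, 27 of the genes had enough UMIs, and most stood at similar levels in the 3 libraries. Ectopic vOLCs were called higher than both controls in 1 gene, Gap43, against 1.39% of 9070 genes, and lower in 2 genes, Syp and Sv2a, against 1.41%. Syp stood at 28.6, 45.6 and 15.0 CPM in OPCs, and the log2 ratio of ectopic vOLCs was −0.93 (interval −1.76 to −0.18) to control dOLCs and −1.61 (interval −2.63 to −0.58) to control vOLCs. It rested on 18 UMIs in ectopic vOLCs. Sv2a stood at 109, 88.7 and 54.1 CPM, with log2 ratios of −1.01 (interval −1.42 to −0.62) and −0.71 (interval −1.33 to −0.08). For both genes, ectopic vOLCs were the lowest library in OPCs as in MOL5/6. Genes of mature oligodendrocytes moved with the ratio of Sv2a to control dOLCs, since Mbp stood at 1515, 849 and 831 CPM in OPCs and Mog at 440, 220 and 217 CPM, whereas both were about equal in control vOLCs and ectopic vOLCs. Their part in the Sv2a ratio was not tested. Both calls were lost with cells thinned to 1000 UMIs and without cells that held a neuron-defining UMI.

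Gap43 stood at 27.0, 15.2 and 40.8 CPM in OPCs, from 71, 6 and 49 UMIs. The log2 ratio of ectopic vOLCs was 0.59 (interval 0.04 to 1.14) to control dOLCs and 1.42 (interval 0.20 to 2.94) to control vOLCs. With cells thinned to 1000 UMIs the former was −0.10, and the call was absent under 6 alternatives in all, so that Gap43 cannot be said to differ. Nnat stood at 475, 512 and 734 CPM, and ectopic vOLCs exceeded the controls by log2 ratios of 0.63 (interval 0.50 to 0.75) and 0.52 (interval 0.30 to 0.75). The latter is under 1.5-fold, and the gene was called only under TMM factors. Nnat stands in a list the study chose on these cells as higher in ectopic OPCs, which makes its direction no independent evidence. Transcript length moved with the ratios in OPCs as well. Across 8814 genes rho was −0.32 to control dOLCs and −0.33 to control vOLCs, and over the 27 genes it was −0.13 and −0.67. Gap43 (1420 bases) and Nnat (1448 bases) are among the 10% of genes with the shortest transcripts, below 1460 bases, whose median log2 ratio was 0.20 to control dOLCs and 0.48 to control vOLCs. The part of length in the ratios of these genes was not tested.

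The adhesion and scaffold genes of OPCs gave no call in ectopic vOLCs. Nlgn3 was 755 CPM in control vOLCs and 374 and 428 CPM in control dOLCs and ectopic vOLCs. It was the only gene called higher in control vOLCs than in control dOLCs, with a log2 ratio of 1.01 (interval 0.82 to 1.20), against 5.41% of genes. Vamp2 was the only gene called lower, with 84.2, 43.1 and 94.8 CPM and a log2 ratio of −0.97 (interval −1.77 to −0.25), against 6.27%. In both genes, ectopic vOLCs stood nearer to control dOLCs than to control vOLCs. Nrxn2, Lrrtm3 and Nrxn3 were likewise highest in control vOLCs, within 1.5-fold of control dOLCs. The 6 OPC markers had the same highest library, with sums of 8594, 11086 and 8717 CPM in OPCs and 1450, 2174 and 1363 CPM for Pdgfra, and their part in these ratios was not tested. Snap25 stood at 60.9, 73.5 and 66.5 CPM, Lrrtm1 at 106, 129 and 114 CPM, and Dlgap1 at 387, 453 and 443 CPM, and in these 3 genes every ratio between libraries was within 1.5-fold.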

How the data were processed

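The submitters' processing notes name Cell Ranger 2.1.1, Seurat 3 and 4.0 and the mm10 genome. The authors deposited UMI counts per gene and barcode without normalization, and an annotation with library, cluster and the percent of mitochondrial counts of each cell; barcodes with 200 to 3000 genes and a limited share of mitochondrial counts had passed their filter, and these cells are used here. Deposited counts were added up per library and class of cells. OPCs left out cycling cells, MOLs were MOL1 to MOL5/6d. Ratios of CPM carry conditional exact binomial intervals at 95%, for counting error only. A ratio with 0 UMIs on 1 side is a bound from 3 counts, given only where it bounds the ratio away from 1.

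No cell was removed as a doublet, apart from an alternative without the 6% of cells with the highest Scrublet score, since Scrublet's own threshold called only 44 cells. Every member was named, and of the other synaptic genes the 3 highest and 3 lowest mean ratios among those past the count minimum. The genes and lists were chosen with earlier results of these data known. Steps were tested on simulated data. Alternatives are given with the closing observations. The 4 P0 samples were not analysed here. Transcript lengths came from GENCODE on GRCm38. Tools were R 4.3.3, edgeR 4.0.16 and DESeq2 1.42.0 (factors only), Python 3.11.15, numpy 2.4.6, scipy 1.17.1, pandas 2.3.3, scanpy 1.11.5 and matplotlib 3.10.9. The summed level of the mature oligodendrocyte marker list is not reported here.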

Additional observations from a re-analysis of the deposited data

Results flagged for a closer look

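Barcodes removed by the quality filter were outside the comparisons, and some values in them exceeded those of the kept cells of the same library. The 32 synaptic and neuronal genes together stood at 3528, 3232 and 3292 CPM in removed barcodes of control dOLCs, control vOLCs and ectopic vOLCs, against 3432, 2957 and 2735 CPM in kept cells. The log2 ratios were 0.04 (interval 0.01 to 0.07), 0.13 (interval 0.07 to 0.19) and 0.27 (interval 0.24 to 0.30). Neuron markers in removed barcodes of ectopic vOLCs stood at 129 CPM, against 115 CPM in kept cells, a log2 ratio of 0.16 (interval 0.01 to 0.32). In the other libraries they were not higher: control vOLCs had 54.1 against 117 CPM, a log2 ratio of −1.12 (interval −1.57 to −0.70), and control dOLCs 149 against 150 CPM, one of −0.01 (interval −0.14 to 0.12). Syt1 stood at 4.07 CPM in removed barcodes of control dOLCs (15 UMIs), against 0.780 CPM in kept cells (18 UMIs), a log2 ratio of 2.38 (interval 1.29 to 3.46). Snap25 in those barcodes was not higher, at 8.96 CPM against 12.1 CPM.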

How the results depend on the processing

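No paired analysis was possible because the 3 conditions have a single library each and the replicate numbers link no samples. Of the recomputed summary values 145 stayed within the limits set (counts within 1.5 times, medians within the spread between libraries), 36 moved and 1 reversed, and among values of single genes 798 did so, 106 moved and 1 reversed. The 17 genes called higher in OPCs numbered 12 with cells thinned to 1000 UMIs, where Dlg4, Shank1, Rbfox1, Gap43 and Cplx2 lost their calls, 13 where a UMI in 10% of cells was also required, where Dlg4, Shank1, Rbfox1 and Cplx2 did, 15 under TMM factors and size factors, and 16 or more under the other alternatives. Genes higher in MOLs numbered 5 under TMM factors and 5 under size factors, and 2 with cells thinned to 1000 UMIs, beside 1. The median log2 ratio of OPCs to MOLs, 3.03, was 2.22 under TMM factors, 2.32 under size factors and 3.49 where a UMI in 10% of cells was also required. Leaving out 1 library in turn gave medians of 2.91 to 3.24, 17 to 20 genes higher in OPCs, and 1 to 3 higher in MOLs, the 3 without ectopic vOLCs.

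In MOL5/6, the 4 genes lower in ectopic vOLCs became 2 under size factors, 2 with the 10% requirement, 1 with thinned cells, 1 within clusters and 1 by Mantel-Haenszel ratios. Within clusters the median to control dOLCs was −0.11, and by Mantel-Haenszel, chosen after seeing the data, −0.22, beside −0.51. With thinned cells the median to control vOLCs was −0.54, beside −0.40, and that of control vOLCs to control dOLCs turned from −0.16 to 0.09. Genes lower in control vOLCs than in control dOLCs, 2 in the report, numbered 0 with the 10% requirement and 1 with thinned cells. Genes higher, 0 in the report, numbered 1 under TMM factors, size factors, both within-cluster ratios, without high doublet scores and without cells holding a neuron-defining UMI.

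In OPCs, genes higher in ectopic vOLCs numbered 2 under TMM factors and 0 under size factors, with the mean of cell CPM, with thinned cells, without high doublet scores, without neuron-defining UMIs and with cycling OPCs added. Gap43 reversed to −0.10 with thinned cells. Genes lower numbered 0 with thinned cells and without neuron-defining UMIs. Control vOLCs against control dOLCs gave 0 lower with thinned cells, and 2 higher and 3 lower without neuron-defining UMIs. The causes of these changes were not tested. Depth limits the OPCs of control vOLCs most, where 3 UMIs amount to 7.60 CPM.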
